A study of Danio rerio with 2 samples.

Results

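The Wnt, Fgf, Bmp and hedgehog signalling genes were followed across cell types in cells sorted from adult zebrafish brain. Members were taken by symbol: Wnt ligands, frizzled (fzd) receptors, secreted frizzled-related proteins and frzb, R-spondins (rspo), dickkopfs (dkk), Bmps and Bmp receptors, inhibin beta subunits (inhb), Fgfs and Fgf receptors (fgfr), and hedgehog genes such as ptch1, smo and hhip. Of 25435 features, 125 matched, and the 48 with at least 30 unique molecular identifiers (UMIs, each standing for 1 captured transcript) in the cells of both libraries were kept. The kept members were 5 of 26 Wnt ligands, 4 of 14 fzd receptors, 5 of 15 Wnt antagonists and R-spondins, 9 of 20 Bmp and inhibin ligands, all 6 Bmp receptors, 5 of 25 secreted Fgfs, all 7 intracellular Fgfs, 4 of 5 Fgf receptors and 3 of 7 hedgehog genes. Some symbols match by name alone: bmp2k is a kinase named for its induction by BMP2, bmp1a and bmp1b are procollagen proteinases, and hhipl2 is named for its likeness to hhip. The Shh ligands themselves are outside the symbol patterns.

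Just inside the minimum stood inhbaa with 32 control and 31 knockout UMIs, rspo1 with 56 and 31, and bmp6 with 58 and 32. Just outside it stood wnt9a with 36 and 28, fgfr1b with 33 and 27, and wnt4 with 27 and 52. The hedgehog transducer smo had 3 and 21 UMIs. Over the cells kept, the 48 members summed to 49711 UMIs with a median of 411 per gene, and fgf13a alone held 36.1% of them.

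Wnt ligands bind frizzled receptors with Lrp5 or Lrp6 and stabilise beta-catenin, or act through routes that do not need it. R-spondins raise the number of frizzled receptors at the surface, while dickkopfs and frzb hold the signal back. Bmps and activins, the latter built from inhibin beta subunits, bind pairs of type I and type II serine/threonine kinase receptors. Secreted Fgfs act on receptor tyrosine kinases, whereas Fgf11 to Fgf14 stay in the cell and bind voltage-gated sodium channels, and hedgehog ligands are received by Patched and held by Hhip. In the developing hindbrain these pathways pattern the cerebellum, and Fgf8 from the midbrain-hindbrain boundary is the best known of these signals.

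The 2 libraries of single-cell RNA were made 1 per genotype from adult brain digested with papain and sorted for eGFP with Sytox Red to leave out dead cells. Both carry a Gal4 allele of gpr85, a gene of a G-protein-coupled receptor expressed in brain: gpr85Gal4/+ fish, with 1 such allele, served as the control, and gpr85GAL4/GAL4 fish, with Gal4 on both alleles, as the knockout. Neither library lacks the Gal4 allele, the labels give no treatment, and only eGFP-positive cells were kept. The sources used here give no number of fish, age or sex, and with 1 library per genotype no difference between genotypes can be tested.

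The libraries held 19368218 and 17646062 UMIs. Barcodes that passed the cell filter numbered 4091 and 3231, and 3957 and 3147 stayed after doublet removal. The targeted gene gpr85 had 1874 UMIs and 146 CPM (139 to 153) in control cells against 1158 UMIs and 107 CPM (101 to 114) in knockout cells, a log2 ratio of -0.44 (-0.55 to -0.34). What the Gal4 allele leaves of the 3 prime end that is counted is not given in the sources used here, so this level does not check the genotype. The added reporter sequence H2B-mGL stood at 12069 and 25416 CPM. CPM are counts per 1000000 UMIs of the cells in question, paired values give the control library first, and intervals are 95%. The intervals cover counting error alone and leave out variation between cells, animals and preparations. Where single cells carry much of a gene's count they understate the error.

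Cells were assigned to types by lists of marker genes in which no member was used, a step called gating here. The granule-gated cells were marked by a list of cerebellar granule neuron genes such as zic1, fat2 and cbln12. They made up 83.6% of control cells (3309) and 84.8% of knockout cells (2670). Of that list, zic1 stood at 1614 and 1596 CPM and fat2 at 1315 and 1516 CPM, while gabra6a stood at 8.19 and 5.14 CPM. The GABAergic gate (gad2, slc32a1, dlx genes) held 45 and 21 cells, the habenula gate (kiss1, gng8, tac3a) 25 and 71, a gate of galn- and pvalb7-positive glutamatergic neurons 109 and 56, a gate of uts1- and otofa-positive cells 55 and 35, and a glial gate 120 and 68. The remaining 289 and 213 cells passed no gate. Counts of 3 in a gate's total correspond to 0.315 and 0.367 CPM for granule-gated cells and 5.55 and 11.96 CPM, 11.3 and 5.28 CPM, 3.72 and 7.504 CPM, 6.37 and 9.16 CPM and 7.54 and 8.30 CPM for the others in the order given, control first; a member at 0 UMIs can lie anywhere up to this level.

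Several gates went partly against their names. The knockout habenula gate held 0 UMIs of tac3a and 2 of gng8 against 189 and 251 in the control gate, and all 71 knockout cells but 18 of 25 control cells had at least 3 kiss1 UMIs, so that gate was read as kiss1-positive cells above all. In the GABAergic gate dlx1a and dlx2a had 94 and 83 control UMIs but 1 and 2 knockout UMIs, while gad2 had 1286 and 637. The glial gate mixed microglia, radial glia and oligodendrocytes in different proportions: the radial glia gene fabp7a stood at 487 and 7851 CPM, and the granule list summed to 1844 and 929 CPM, so glial levels were not compared between genotypes. Of the markers of the galn gate, eomesa stood at 21.1 and 82.5 CPM there against 46.1 and 18.7 CPM in granule-gated cells. In the control library that marker was thus lower in the gate than in granule-gated cells. The galn gate carried 2982 and 3014 CPM of the granule list against 4191 and 4343 CPM in granule-gated cells, and the uts1 gate rests on 2 markers. What part these other transcripts have in the levels below was not tested.

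**Figure D1:**
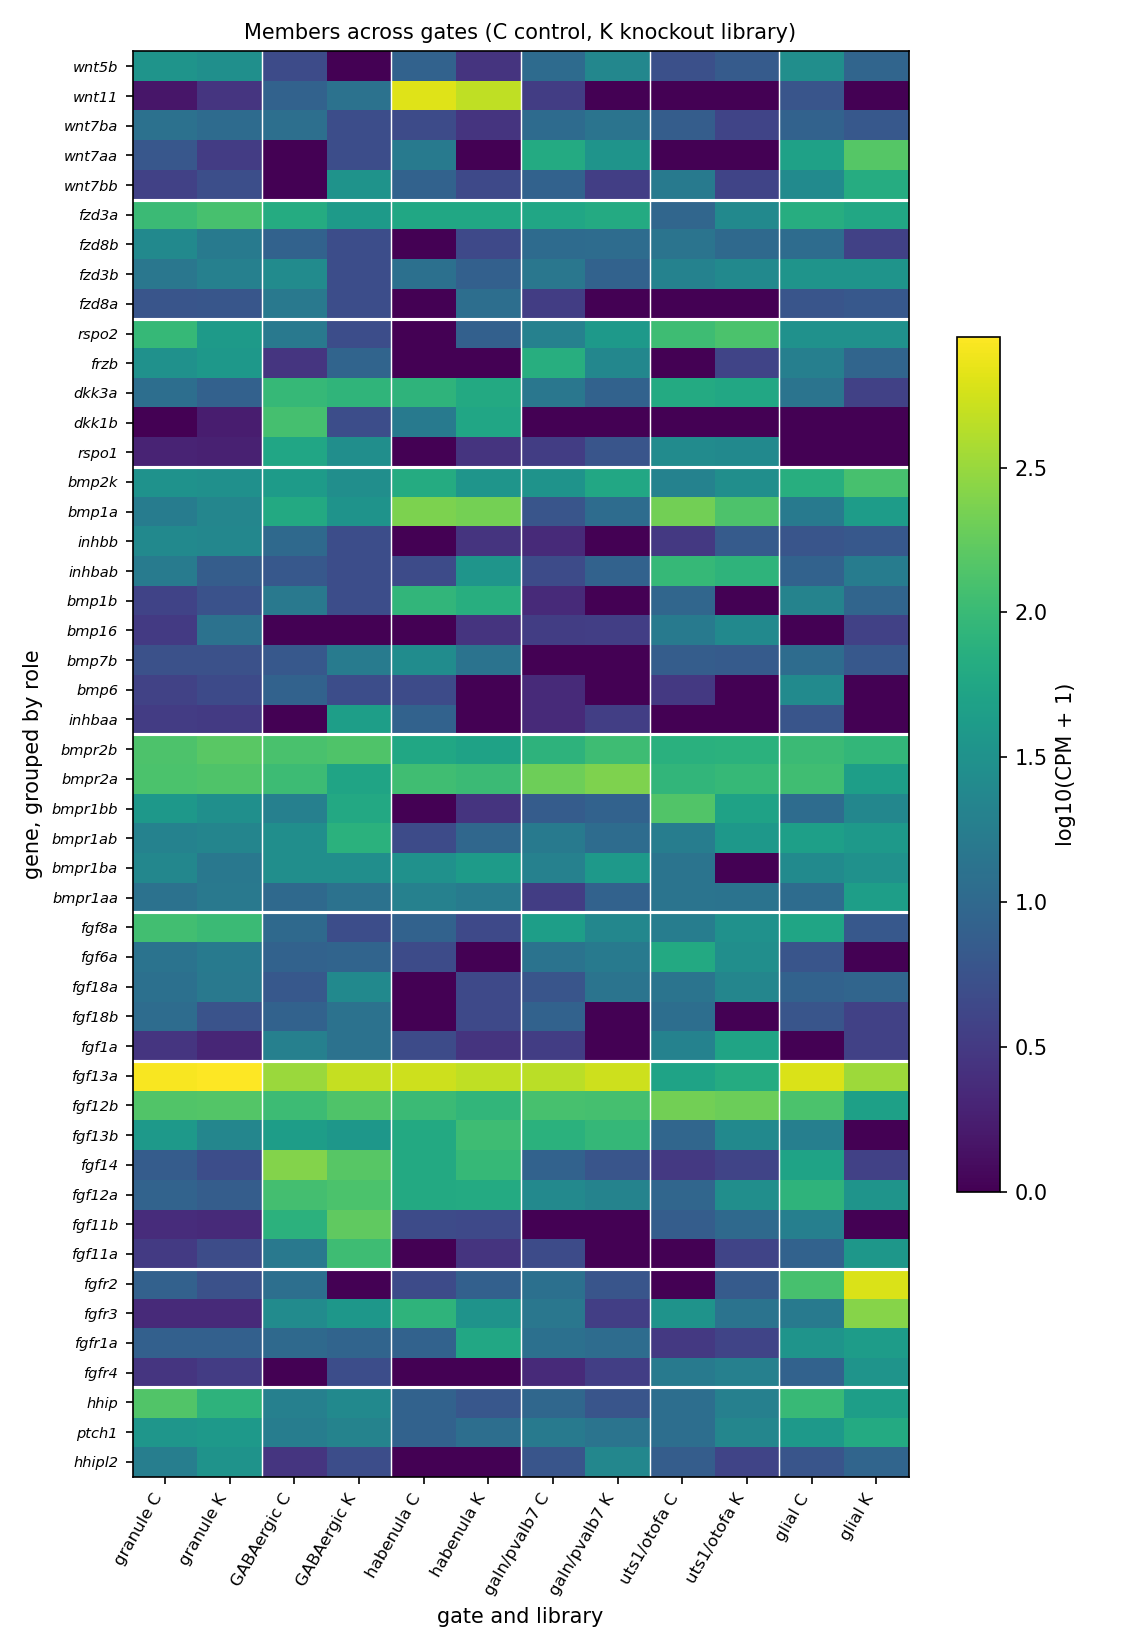
Level of each of the 48 members, as log10(CPM + 1), in the granule, GABAergic, habenula, galn/pvalb7, uts1/otofa and glial gates, control (C) and knockout (K) library side by side, with members grouped by role. Bright single cells of the map stand out for wnt11 in the habenula gate and fgfr2 in the glial gate, against more even lines for bmpr2a and bmpr2b.

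A member was counted as enriched in a gate when its CPM was at least 4 times that of granule-gated cells in each library on at least 10 UMIs. The gates other than the granule gate hold 21 to 120 cells, so a few cells can set a level. Of the 48 members, 7 were so enriched in the habenula gate, where 3.73% of 13872 genes were, and 5 in the glial gate (4.54% of genes). A further count of 4 was found in the GABAergic gate (4%), 3 in the uts1 gate (2.87%) and 1 in the galn gate (1.05%). With cell classes taken from clusters instead, 7 members were enriched in the GABAergic and 5 in the uts1 class, and with every cell thinned to 1000 UMIs, where few members keep 10 UMIs in a gate, the counts were 1 in the habenula gate and 0 in the others. In the glial gate the count was 3 with the microglia and radial glia lists alone, and 2 when the cell with most UMIs of each member was left out, alternatives chosen after seeing the data. No share of all genes stands beside these alternative counts, so they are not read as results about the members. The gate of the highest level was the same in both libraries for 31 members: granule-gated cells for 9, the GABAergic and uts1 gates for 6 each, the glial gate for 5, the habenula gate for 4 and the galn gate for 1. This split has no share of all genes beside it, so it describes the members alone. Some of these highest levels rest on few UMIs, such as bmp16 in the uts1 gate with 7 and 8. The median member stood at a log2 ratio over granule-gated cells of -0.24 (control) and -0.66 (knockout) in the habenula gate, where the median of all genes was -0.16 and -0.24. In the GABAergic gate it stood at -0.15 and 0.43 against 0.03 and 0.04.

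Among the Wnt ligands, wnt11 (ENSDARG00000014796), which in vertebrates acts mainly without beta-catenin, was highest in the habenula gate. It stood at 649.7 CPM (172 UMIs in 20 cells, 556 to 754) and 461 CPM (262 UMIs in 68 cells, 407 to 521), against 0.525 and 1.84 CPM in granule-gated cells, log2 ratios of 10.27 (9.02 to 11.91) and 7.97 (7.22 to 8.83). A wnt11 UMI was found in 80.0% (59.3 to 93.2) and 95.8% (88.1 to 99.1) of habenula-gated cells, and in 48.0% and 33.8% when each cell was thinned to 1000 UMIs. Among granule-gated cells it was found in 0.151% (0.0491 to 0.352) and 0.262% (0.105 to 0.539). The gate's cells differed between libraries: restricted to kiss1-positive cells, wnt11 stood at 927 CPM (791 to 1079) and 461 CPM (407 to 521). In the 7 control cells without kiss1 it stood at 70.1 CPM (25.7 to 153). A single control cell held 34 of 191 wnt11 UMIs, and cells that passed no gate stood at 7.59 and 54.4 CPM.

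The ligands related to mammalian WNT7A and WNT7B followed other cells. In the galn gate wnt7aa (ENSDARG00000044827) stood at 63.2 CPM (47.0 to 83.1) and 32.5 CPM (17.3 to 55.6), 3.59 and 3.81 log2 units over granule-gated cells (5.25 and 2.32 CPM), and it was also enriched in the glial gate, at 47.7 and 149 CPM. Its near relative wnt7bb (ENSDARG00000071107) also reached 25.1 and 66.4 CPM in the glial gate from 2.73 and 4.16 CPM in granule-gated cells, but without the cell with most UMIs the control glial log2 ratio came down from 3.20 to 0.90, on 2 UMIs left of 10. wnt5b (ENSDARG00000102464) and wnt7ba (ENSDARG00000022858) were highest or nearly so in granule-gated cells, at 33.2 CPM (29.6 to 37.1) and 28.4 CPM (24.8 to 32.3) and 11.7 and 9.91 CPM. Summed over the 5 Wnt ligands, granule-gated cells held 53.3 and 46.6 CPM, the habenula gate 684 and 468 CPM and the uts1 gate 25.5 and 12.2 CPM, and wnt11 made up 95.03% and 98.5% of the habenula sum.

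The frizzled receptors were shared more evenly. fzd3a (ENSDARG00000021664), whose mouse homolog is needed for axon guidance, had 103 CPM (96.7 to 109.7) and 124 CPM (117 to 132) in granule-gated cells and 8.49 and 24.4 CPM in the uts1 gate, where it was at least 4-fold lower in both libraries. Its paralog fzd3b (ENSDARG00000058692) stood at 14.0 and 18.2 CPM in granule-gated cells and 32.7 and 33.2 CPM in the glial gate. fzd8b (ENSDARG00000038569) stood at 24.0 and 15.3 CPM in granule-gated cells and at most 12.7 CPM in another gate of the control library. The 4 receptors together summed to 146 and 163 CPM in granule-gated cells and 40.3 and 58.0 CPM in the uts1 gate.

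Of the secreted Wnt modulators, rspo2 (ENSDARG00000079570), an R-spondin that sustains frizzled at the cell surface, held 93.0 and 39.5 CPM in granule-gated cells and 108 and 131 CPM in the uts1 gate, while the habenula gate held 0 and 4 UMIs. Set at its 3-count floor, the control habenula gate was 8.21-fold lower than granule-gated cells, and the interval of its log2 ratio ran up to -2.74. dkk3a (ENSDARG00000103591), a dickkopf family member whose part in Wnt signalling is debated, was enriched in the GABAergic (94.4 and 83.7 CPM), habenula (83.1 and 61.6 CPM) and uts1 gates (63.7 and 58.0 CPM) over granule-gated cells (10.6 and 7.22 CPM). frzb (ENSDARG00000018383), a soluble decoy for Wnt ligands, stood at 29.9 CPM (26.6 to 33.6) and 36.7 CPM (32.7 to 41.1) in granule-gated cells. Its level in the galn gate was 69.4 CPM on 56 UMIs in the control library, the highest of the gates, but 22.5 CPM in the knockout library. The control habenula and uts1 gates held 0 UMIs of frzb. In the uts1 gate frzb was 4.70-fold lower in the control library when set at the floor, and stood at 3.05 CPM in the knockout library. The interval of the control log2 ratio ran up to -1.92, which is under 4-fold. The Lrp5/6 antagonist dkk1b had 68 control UMIs, 64 of them in 1 GABAergic-gated cell. In the knockout library it had 41 UMIs in 12 cells, 31 of them in 7 habenula-gated cells, so no gate can be given for it. The R-spondin gene rspo1 likewise had 26 of 56 control UMIs in 1 GABAergic-gated cell.

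**Figure D2:**
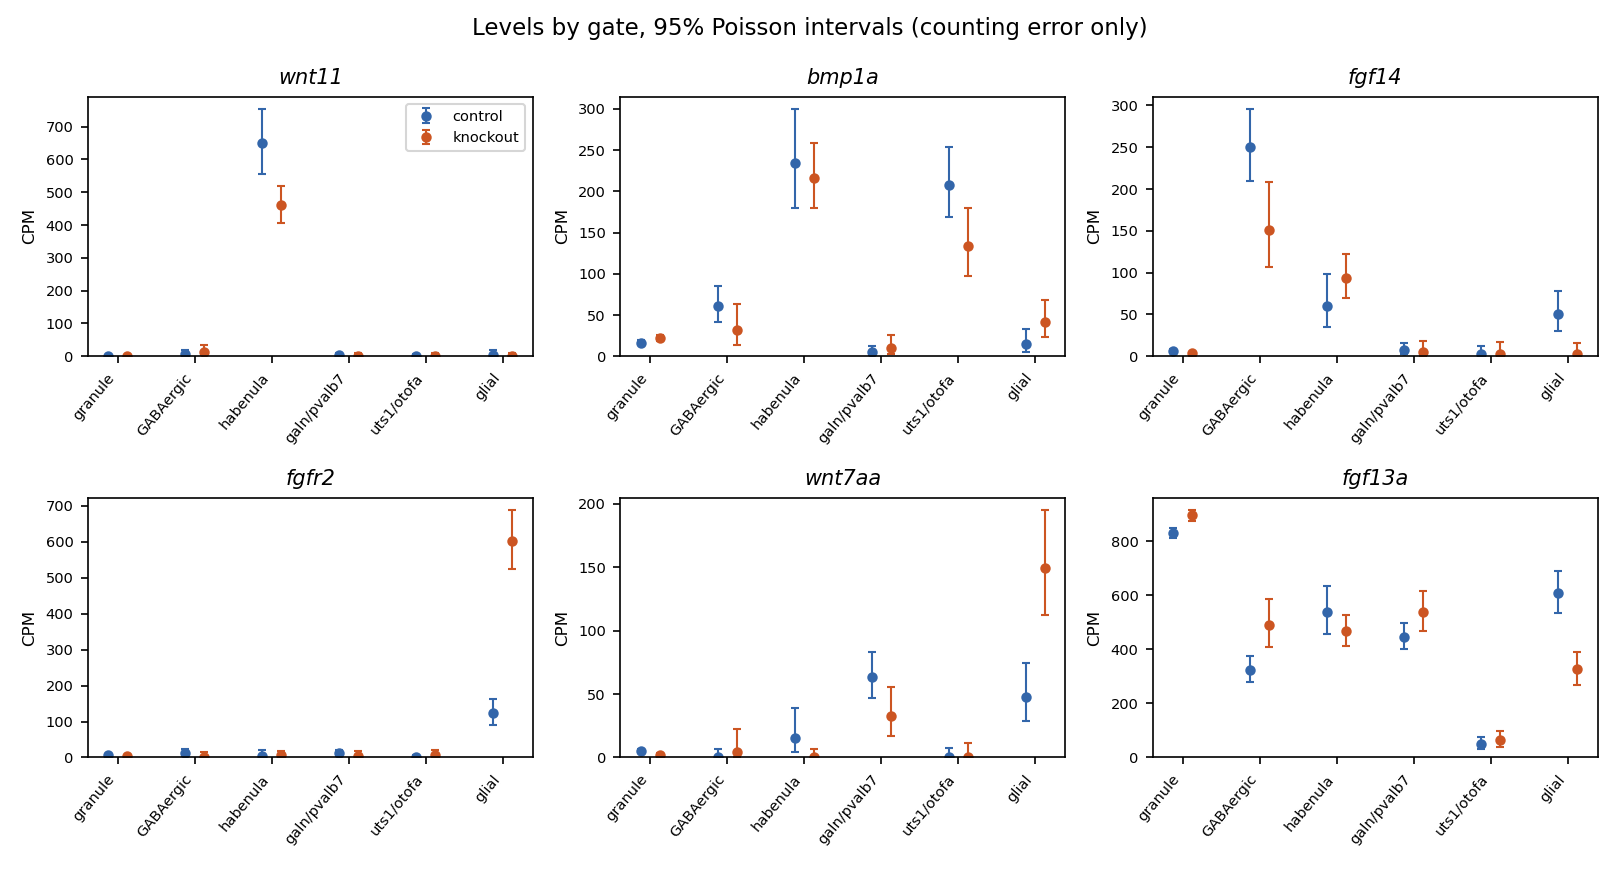
CPM of wnt11, bmp1a, fgf14, fgfr2, wnt7aa and fgf13a (vertical axis) in the 6 gates (horizontal axis), control in blue and knockout in orange, with 95% Poisson intervals for counting error. The highest point of wnt11 and bmp1a is the habenula gate, that of fgf14 the GABAergic gate and that of fgfr2 the glial gate, whereas fgf13a is lowest in the uts1/otofa gate, at 51.0 and 64.1 CPM.

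In the Bmp group, the procollagen proteinase gene bmp1a (ENSDARG00000028071) was enriched in the habenula gate, at 234 CPM (179.5 to 300.2) and 217 CPM (179.9 to 258), against 16.6 and 21.8 CPM in granule-gated cells. It was also enriched in the uts1 gate, at 208 and 134 CPM. Its paralog bmp1b (ENSDARG00000028053) was enriched in the habenula gate alone, at 86.9 CPM (55.1 to 130.4) and 70.4 CPM (50.3 to 95.9). inhbab (ENSDARG00000024759), an activin beta A subunit gene, stood at 93.4 CPM (67.9 to 125) and 82.4 CPM (54.3 to 119.9) in the uts1 gate and 15.9 and 6.36 CPM in granule-gated cells. inhbb (ENSDARG00000040777), the activin beta B subunit gene, was highest in granule-gated cells, at 24.5 and 22.4 CPM, and did not exceed 9.26 CPM in another gate. The kinase gene bmp2k (ENSDARG00000020009) stood at 31.4 and 29.0 CPM in granule-gated cells and 70.3 and 124 CPM in the glial gate.

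The 2 type II Bmp receptors were found in every gate. The genes bmpr2a (ENSDARG00000011941) and bmpr2b (ENSDARG00000020057) stood at 130.0 CPM (123 to 137) and 135 CPM (127 to 144) for bmpr2a and 135 CPM (127 to 142) and 156 CPM (148 to 165) for bmpr2b in granule-gated cells. The galn gate had the highest bmpr2a, 201 and 243 CPM, and a lower bmpr2b, 80.5 and 108 CPM. Of the type I receptors, bmpr1bb (ENSDARG00000102742) stood at 142 and 48.9 CPM in the uts1 gate and 36.5 and 28.9 CPM in granule-gated cells, which was under 4-fold in each library. bmpr1ab (ENSDARG00000105045) stood at 19.1 and 20.8 CPM in granule-gated cells and 3.78 and 8.80 CPM in the habenula gate. Summed over the 6 genes, receptors stood at 355 and 370.2 CPM in granule-gated cells and 219 and 218 CPM in the habenula gate.

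The secreted Fgfs were led by fgf8a (ENSDARG00000003399), the zebrafish Fgf8 of the midbrain-hindbrain boundary, in adult granule-gated cells. It stood there at 113 CPM (106 to 120.1) and 102 CPM (94.8 to 109), in 23.4% (21.9 to 24.8) and 22.8% (21.2 to 24.4) of cells. The habenula gate held 7.55 and 3.52 CPM and the GABAergic gate 9.26 and 3.99 CPM, both at least 4-fold lower in each library, and a share of 6.67% (1.40 to 18.3) and 4.76% (0.12 to 23.8) of GABAergic-gated cells had a UMI. Thinned to 1000 UMIs per cell, the share was 10.0% and 9.44% of granule-gated cells and 0 in the GABAergic gate of each library. Secreted Fgfs summed to 149 and 138 CPM in granule-gated cells and 15.1 and 12.3 CPM in the habenula gate. fgf6a (ENSDARG00000009351), a relative of mammalian FGF6, stood at 12.4 and 15.5 CPM in granule-gated cells and 61.6 and 27.5 CPM in the uts1 gate. The pair fgf18a (ENSDARG00000088048) and fgf18b (ENSDARG00000043962) stood at 11.4 and 14.8 CPM and 10.1 and 4.77 CPM in granule-gated cells.

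The intracellular Fgfs divided by cell type. fgf13a (ENSDARG00000035056), the member with the most UMIs, stood at 831 CPM (813 to 849.9) and 896 CPM (876 to 917) in granule-gated cells. It was detected in 77.8% (76.3 to 79.2) and 84.0% (82.5 to 85.3) of them. In the uts1 gate it stood at 51.0 CPM (32.7 to 75.8) and 64.1 CPM (39.7 to 98.0), and 23.6% (13.2 to 37.0) and 25.7% (12.5 to 43.3) of cells had a UMI, although the median uts1-gated cell held more UMIs (8005 and 8329 against 2528 and 2818). With every cell thinned to 1000 UMIs, the shares were 51.9% and 54.9% in granule-gated cells and 7.27% and 8.57% in the uts1 gate. fgf12b (ENSDARG00000113525) varied less, from 102 and 86.3 CPM in the habenula gate to 210.2 and 192 CPM in the uts1 gate outside the glial gate. Enriched in the GABAergic gate was fgf14 (ENSDARG00000040982), at 250.0 CPM (209.6 to 296) and 151 CPM (107 to 208) against 6.30 and 4.04 CPM in granule-gated cells. Also enriched there were fgf11b (ENSDARG00000043907), at 77.8 and 167 CPM against 1.37 and 1.22 CPM, and fgf12a (ENSDARG00000027957), at 117 and 132 CPM against 7.67 and 6.36 CPM.

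For fgf14 the log2 ratios over granule-gated cells were 5.31 (4.86 to 5.77) and 5.23 (4.52 to 5.95). A UMI was found in 62.2% (46.5 to 76.2) and 52.4% (29.8 to 74.3) of GABAergic-gated cells against 1.33% (0.968 to 1.78) and 0.899% (0.577 to 1.33) of granule-gated cells. Single cells held 28 of 102 control and 21 of 79 knockout UMIs of fgf11b, and without the control cell its log2 ratio there came to 4.28 from 5.83. The habenula gate shared the higher fgf14 and fgf12a, at 60.4 and 93.3 CPM and at 60.4 and 63.4 CPM. In the glial gate fgf12a was enriched as well, at 82.9 and 33.2 CPM on 33 and 12 UMIs. Without the cell with most UMIs of fgf12a, its knockout log2 ratio in the glial gate came to 1.98, under 4-fold. Cells of the GABAergic and habenula gates held several times the UMIs of granule-gated cells, and when all cells were thinned to 1000 UMIs the fgf14 share was 20% and 4.76% in the GABAergic gate and 0.635% and 0.337% in granule-gated cells.

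Fgf receptors were highest outside granule-gated cells. fgfr2 (ENSDARG00000058115) stood at 123 CPM (91.1 to 163) and 603 CPM (526 to 688) in the glial gate against 7.35 and 4.40 CPM in granule-gated cells. A single knockout glial cell held 92 of its 288 UMIs in that library. Without the cell with most UMIs in each library the log2 ratios came to 3.49 and 6.36, from 4.07 and 7.097, and the glial gates differ in make-up as given above. fgfr1a (ENSDARG00000011027) was also enriched in the glial gate, at 32.7 and 41.5 CPM against 7.14 and 7.096 CPM, on 13 and 15 UMIs. Without the cell with most UMIs its log2 ratios came to 1.53 and 2.14, from 2.19 and 2.55, so the control library no longer reached 4-fold. Its highest knockout level was in the habenula gate, at 58.1 CPM on 33 UMIs, against 7.55 CPM on 2 UMIs in the control library. fgfr3 (ENSDARG00000004782) was enriched in the habenula gate, at 83.1 CPM (52.1 to 126) and 31.7 CPM (18.8 to 50.1), against 1.26 and 1.22 CPM in granule-gated cells. Its highest knockout level was instead in the glial gate, at 15.1 and 257 CPM there, where 1 knockout cell held 26 of the 93 UMIs, and the GABAergic gate held 25.9 and 35.9 CPM. The 7 control habenula-gated cells without kiss1 had fgfr3 at 187 CPM (107 to 303), and the 18 with kiss1 had it at 33.5 CPM (12.3 to 72.9). Granule-gated cells held the secreted Fgfs at 149 and 138 CPM and the receptors at 17.6 and 15.0 CPM, while the glial gate held receptors at 178 and 935 CPM and secreted Fgfs at 70.3 and 19.4 CPM.

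Of the hedgehog genes, hhip (ENSDARG00000060397), which binds and holds back hedgehog ligands, was highest in granule-gated cells. It stood at 141 CPM (134 to 149) and 80.0 CPM (74.0 to 86.4) in granule-gated cells, and at 7.55 and 5.28 CPM in the habenula, 8.67 and 5.00 CPM in the galn and 10.6 and 18.3 CPM in the uts1 gate, each at least 4-fold lower in both libraries. The glial gate held hhip at 98.0 and 44.2 CPM, just 1.44-fold and 1.81-fold lower. A single glial-gated cell held 12 of the 39 control UMIs there, and 1 held 8 of the 16 knockout UMIs. In the GABAergic gate hhip stood at 18.5 and 23.9 CPM, 7.63-fold and 3.35-fold lower. ptch1 (ENSDARG00000016404), the hedgehog receptor and itself a target of the pathway, stood at 34.9 CPM (31.2 to 38.8) and 38.4 CPM (34.3 to 42.9) in granule-gated cells and 37.7 CPM (21.1 to 62.2) and 63.6 CPM (40.3 to 95.4) in the glial gate. hhipl2 (ENSDARG00000060008) was highest in granule-gated cells, at 17.1 and 31.9 CPM.

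Counted the other way, members at least 4-fold below granule-gated cells in both libraries, among those abundant enough to show it, numbered 1 of 7 in the GABAergic gate, where 2.82% of genes were that low, 3 of 9 in the habenula gate (8.24%), 1 of 14 in the galn gate (2.06%), 4 of 10 in the uts1 gate (4.73%) and 0 of 13 in the glial gate (0.132%). They were fgf8a in the GABAergic gate, hhip, rspo2 and fgf8a in the habenula gate, hhip in the galn gate, and hhip, frzb, fzd3a and fgf13a in the uts1 gate.

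Within granule-gated cells, subgates were set by genes that vary among granule cells, and 1859 control and 1628 knockout cells passed none. The gsg1l/lmx1al subgate, 387 control cells (11.7% of granule-gated) and 128 knockout cells (4.79%), was the one with members at least 4-fold over the other granule-gated cells in both libraries: rspo2 and inhbab, 2 of 48 members against 1.1% of all genes. There rspo2 stood at 599 CPM (555 to 647) and 548 CPM (483 to 619), against 26.0 and 8.69 CPM in the other granule-gated cells, log2 ratios of 4.52 (4.30 to 4.75) and 5.98 (5.58 to 6.39). A UMI of rspo2 was found in 70.0% (65.2 to 74.6) and 72.7% (64.1 to 80.2) of these cells, in 3.90% (3.23 to 4.67) and 1.61% (1.16 to 2.18) of the other granule-gated cells and in 8.33% (4.07 to 14.8) and 4.41% (0.919 to 12.4) of glial-gated cells. The activin subunit gene inhbab stood at 98.8 CPM (81.2 to 119) and 77.0 CPM (54.0 to 107), against 4.88 and 2.08 CPM, in 21.4% (17.5 to 25.9) and 21.1% (14.4 to 29.2) of cells. This subgate also held the highest subgate levels of fgf8a, 161 and 175 CPM, and bmpr1bb, 96.1 and 89.9 CPM, and the lowest of fgf13a, 452 and 430.1 CPM against 847 and 904 CPM in cells of no subgate.

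No member passed 4-fold in the other subgates, where shares of all genes were 0.0288% (sox11a/b, taken as immature granule cells), 0.108% (SYT2), 0.0216% (phldb1a), 0.0433% (pax2a) and 0.0144% (nr2f1a). The 2 leading members of each subgate, among those with at least 10 UMIs there in each library, are given here. In the sox11a/b subgate hhip stood at 280.4 CPM (242 to 323) and 137 CPM (104 to 177), against 130.3 and 76.9 CPM in the other granule-gated cells, and fgf6a at 30.2 and 26.0 CPM against 10.99 and 15.0 CPM. In the phldb1a subgate frzb stood at 86.0 CPM (66.6 to 109) and 109 CPM (86.7 to 135) against 24.9 and 29.2 CPM, and inhbb at 53.9 and 41.4 CPM against 21.8 and 20.4 CPM. The pax2a subgate was led by the type I Bmp receptors, bmpr1ab at 36.4 and 42.5 CPM against 18.4 and 20.2 CPM and bmpr1bb at 52.0 and 51.0 CPM against 35.9 and 28.2 CPM. The SYT2 subgate was led by bmp2k, 56.5 and 54.2 CPM against 30.3 and 27.4 CPM, with bmp1a at 27.0 and 26.1 CPM against 16.1 and 21.5 CPM. The bmp1a log2 ratios there, 0.75 (-0.29 to 1.63) and 0.28 (-0.66 to 1.09), had intervals that included no difference. In the sox11a/b subgate bmp1a was higher, at 34.5 and 28.4 CPM. The nr2f1a subgate was led by ptch1, 52.6 and 62.1 CPM against 34.4 and 36.6 CPM, with bmp2k at 45.1 and 31.0 CPM against 31.0 and 28.8 CPM. Each of these differences stayed under 4-fold in each library.

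**Figure D3:**
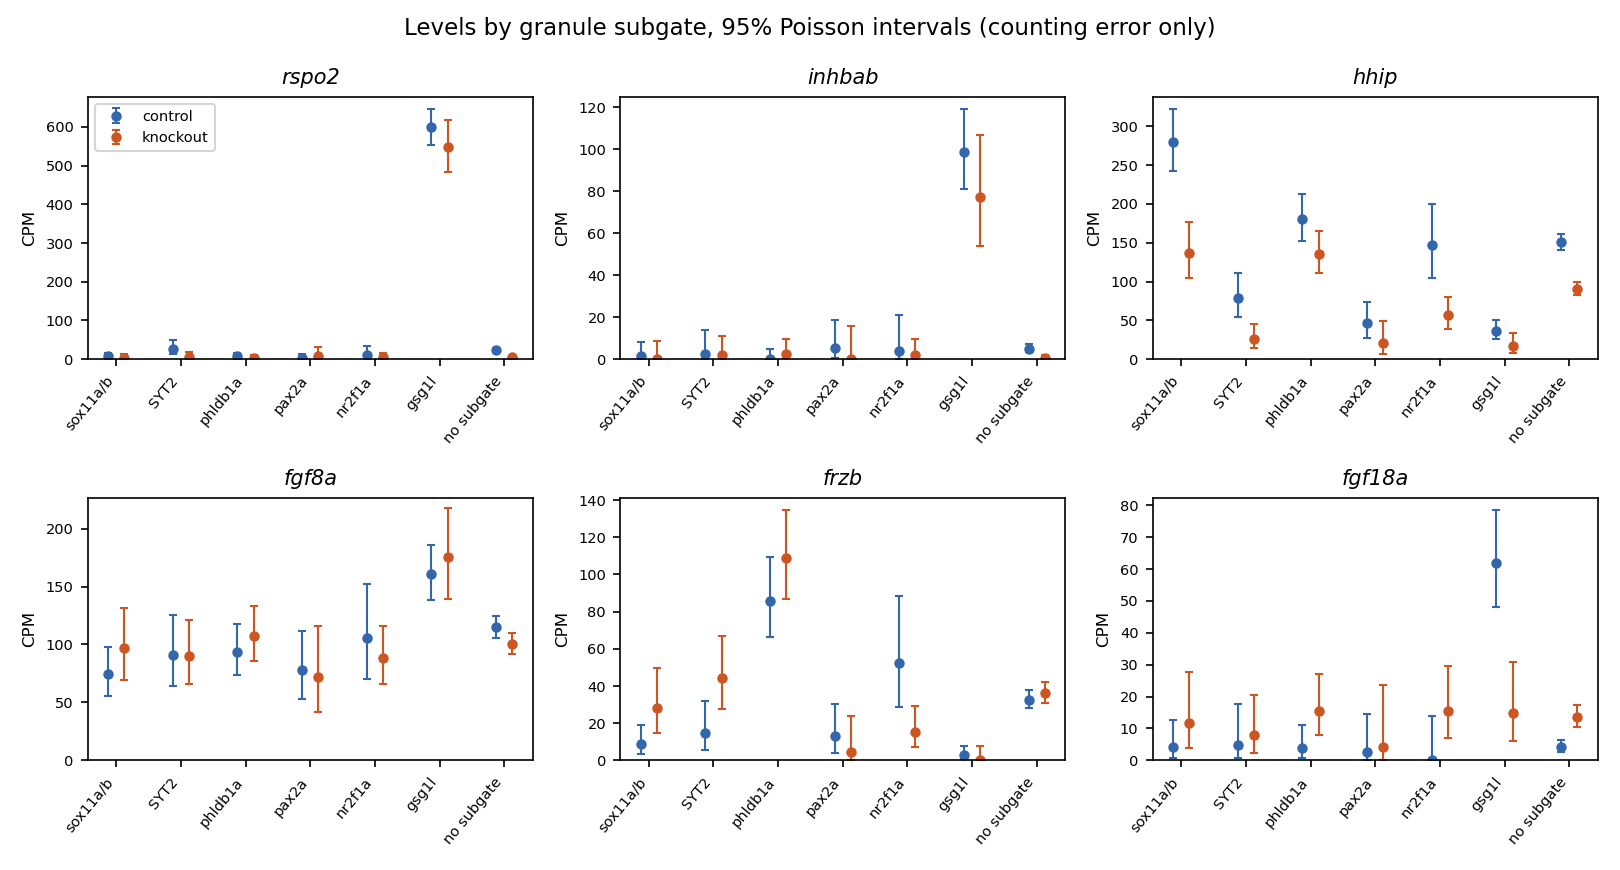
CPM of rspo2, inhbab, hhip, fgf8a, frzb and fgf18a (vertical axis) in the 6 granule subgates and in cells of no subgate (horizontal axis), control in blue and knockout in orange, with 95% Poisson intervals for counting error. The gsg1l subgate holds rspo2 at 599 and 548 CPM, against 23.4 and 4.32 CPM in cells of no subgate, while frzb is highest in the phldb1a subgate. Control hhip is highest in the sox11a/b subgate, and knockout hhip is near level in the sox11a/b and phldb1a subgates, at 137 and 136 CPM.

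Duplicated genes (a and b paralogs) offered 12 pairs of members, and the share of a pair's UMIs given by one paralog was read between gates rather than as a level, since capture at the 3 prime end may differ between paralogs. The fgf12a share of the fgf12 pair was 5.17% (4.07 to 6.45) and 4.197% (3.15 to 5.47) in granule-gated cells and 52.9% (43.6 to 62.2) and 49.3% (36.8 to 61.8) in the GABAergic gate. The habenula gate gave 37.2% and 42.4%, and the glial gate 39.3% and 41.4%. For the fgf13 pair, fgf13a made up 95.6% and 97.6% of the pair in granule-gated cells. In the uts1 gate it made up 85.7% (67.3 to 96.0) and 72.4% (52.8 to 87.3), and the control interval included the granule-gated 95.6%. Among the type I receptors, bmpr1ba made up 37.9% and 33.1% of UMIs in granule-gated cells, 100% (63.1 to 100) and 95.8% (78.9 to 99.9) in the habenula gate and 8.22% (3.08 to 17.0) and 0% (0 to 20.6) in the uts1 gate. For the type II receptors, bmpr2a made up 49.1% and 46.4% in granule-gated cells, 65.9% and 67.4% in the habenula gate and 71.4% and 69.3% in the galn gate. The fzd3a share was 88.1% and 87.2% in granule-gated cells. In the uts1 gate it was 30.8% (9.09 to 61.4) and 50% (24.7 to 75.3), on 4 and 8 fzd3a UMIs. The bmp1a share was 84.9% and 82.8% in granule-gated cells and 72.9% and 75.5% in the habenula gate.

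**Figure D4:**
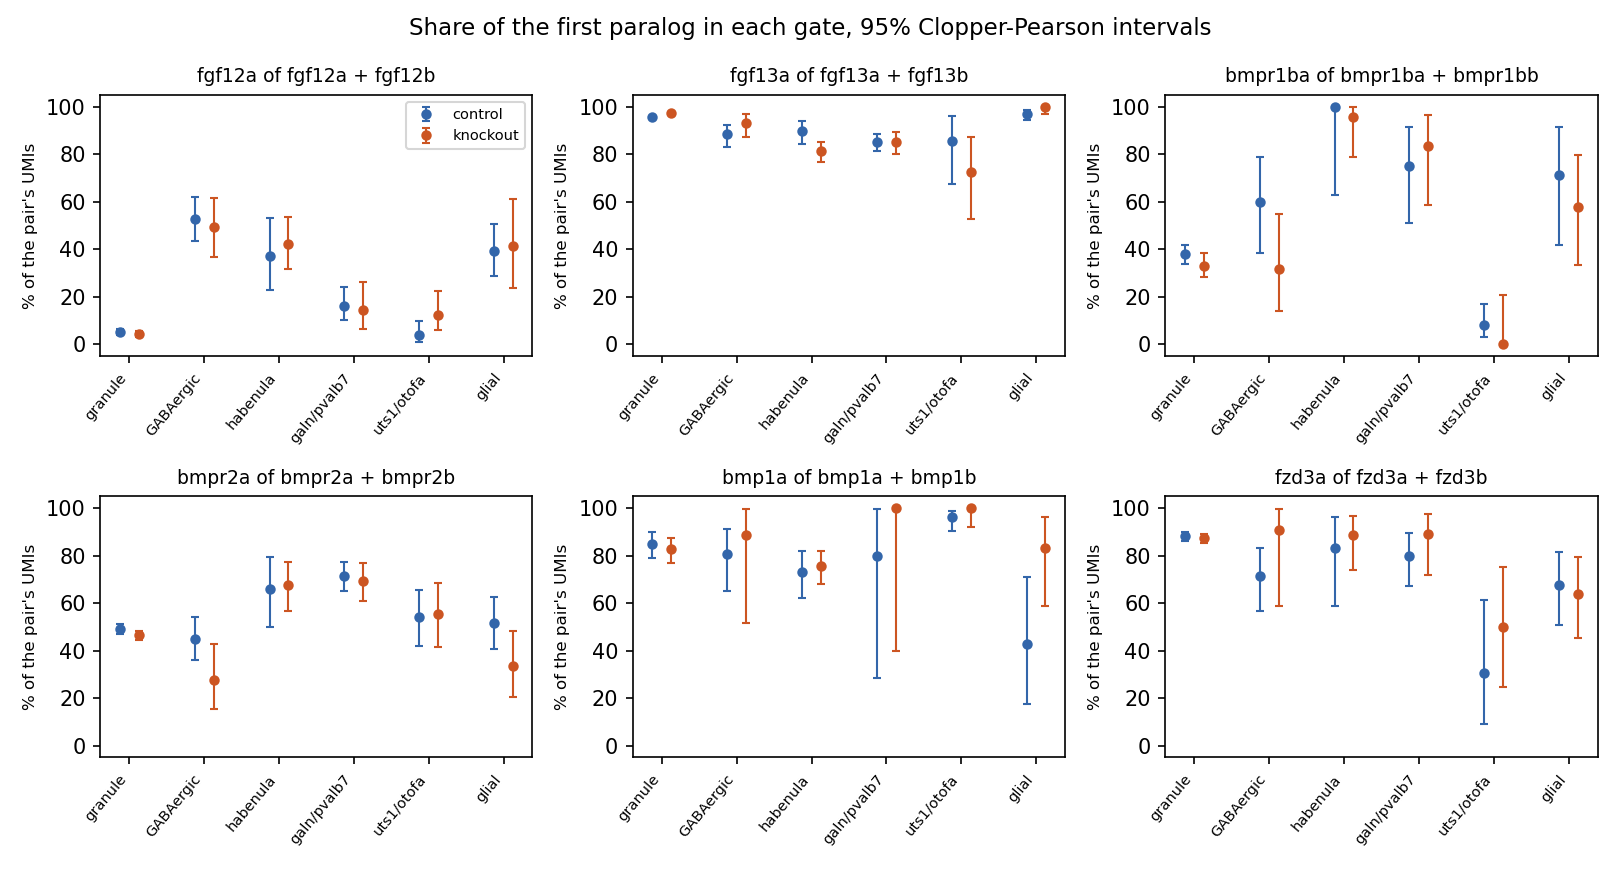
Share of the first paralog in the pair's UMIs (percent, vertical axis) by gate for fgf12, fgf13, bmpr1b, bmpr2, bmp1 and fzd3, control in blue and knockout in orange, with 95% Clopper-Pearson intervals. The fgf12a share is near 5.17% and 4.197% in granule-gated cells and near 52.9% and 49.3% in the GABAergic gate.

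Between the genotypes, the members were compared in granule-gated cells, where 32 had at least 100 UMIs over both libraries. The median member differed by -0.06 on the log2 scale (knockout over control), against -0.03 for the 11457 genes compared, and 15 of 32 members were higher in the knockout library, as were 44.8% of all genes. A single member, bmp16, was at least 2-fold higher, where 1.11% of genes were, and 3 members, inhbab, rspo2 and fgf18b, were at least 2-fold lower, where 2.25% of genes were. These ratios compare 2 libraries and have no replicate behind them.

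bmp16 (ENSDARG00000103679), a Bmp ligand gene of fishes, had 21 UMIs in 15 control cells and 99 UMIs in 83 knockout cells, 2.21 and 12.11 CPM, a log2 ratio of 2.46 (1.77 to 3.21). It stood at 1.73 and 15.1 CPM in cells of no subgate and had 0 and 16 UMIs in the phldb1a subgate, but 6 and 0 UMIs in the sox11a/b subgate, 4 and 2 in the SYT2 subgate and 1 and 0 in the gsg1l subgate. The next highest member, hhipl2, stood at 17.1 and 31.9 CPM, a log2 ratio of 0.90 (0.61 to 1.19). In cells of no subgate hhipl2 stood at 11.3 and 31.6 CPM, a ratio of 1.48 (1.03 to 1.94), and hhipl2 was the 1 member at least 2-fold higher among 24 compared there (0.856% of genes).

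On the lower side, rspo2 stood at 93.0 and 39.5 CPM, a log2 ratio of -1.24 (-1.42 to -1.05). The activin subunit gene inhbab stood at 15.9 and 6.36 CPM, a ratio of -1.32 (-1.80 to -0.85). Both were high in the gsg1l subgate, which made up 11.7% of control and 4.79% of knockout granule-gated cells. Within that subgate rspo2 stood at 599 and 548 CPM, a ratio of -0.13 (-0.34 to 0.08), and inhbab differed by -0.36 (-0.94 to 0.20). With the same subgate weights in both libraries the ratios over granule-gated cells were -0.44 for rspo2 and -0.60 for inhbab, neither of them 2-fold. With these weights, 2 members were at least 2-fold higher and 1 lower, beside 1.06% and 1.92% of genes. In cells of no subgate rspo2 was lower, 23.4 and 4.32 CPM, a ratio of -2.44 (-3.20 to -1.75), the member at least 2-fold lower among 24 (1.84% of genes). The marker genes of the gsg1l subgate differed there too, summing to 85.8 and 18.8 CPM in cells of no subgate. What part unassigned cells of that type have in the rspo2 ratio was not tested. Barcodes under 100 UMIs, taken as free RNA, held rspo2 at 82.0 and 61.3 CPM, and the part of it in the value of cells of no subgate was not tested.

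The third lower member, fgf18b, stood at 10.1 and 4.77 CPM, a log2 ratio of -1.08 (-1.66 to -0.53), and kept -1.09 with those weights. The hedgehog-binding hhip stood at 141 and 80.0 CPM, a ratio of -0.82 (-0.96 to -0.68), which is under 2-fold. In the sox11a/b subgate it stood at 280.4 and 137 CPM, a ratio of -1.03 (-1.48 to -0.60), the 1 member at least 2-fold lower among 6 there (1.22% of genes). That subgate made up 8.49% and 5.09% of granule-gated cells. Other members with many UMIs had log2 ratios nearer 0: fgf13a differed by 0.11 (0.06 to 0.15), bmpr2b by 0.21 (0.10 to 0.33), fgf12b by 0.05 (-0.07 to 0.16), bmpr2a by 0.06 (-0.06 to 0.18), fgf8a by -0.16 (-0.29 to -0.02) and fzd3a by 0.27 (0.14 to 0.40). Further ratios were fgf13b at -0.79 and fzd8b at -0.65, and ptch1 at 0.14. No member among 4, 8 and 9 compared in the SYT2, phldb1a and gsg1l subgates was 2-fold apart in either direction, where 0.858%, 0.969% and 0.815% of genes were higher and 1.06%, 0.908% and 1.66% lower.

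**Figure D5:**
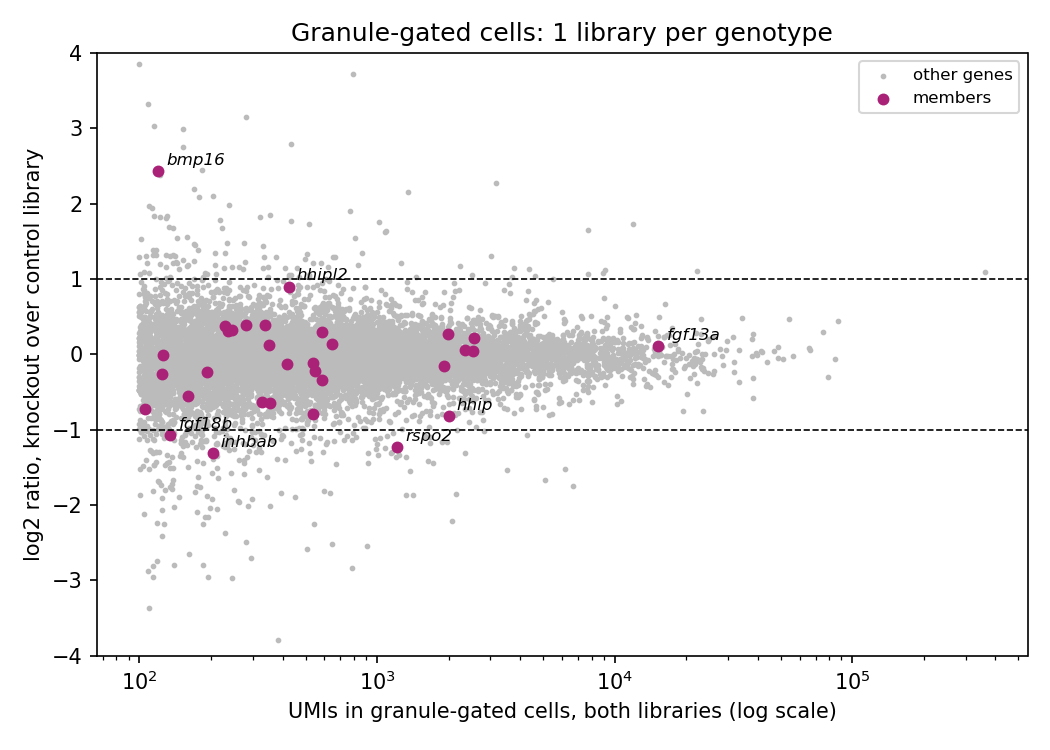
Log2 ratio of knockout over control library (vertical axis) against UMIs in granule-gated cells over both libraries (horizontal axis, log scale), for 11457 genes in grey and 32 members in magenta; dashed lines mark 2-fold, and 14 genes, none of them members, lie beyond the axis. The members scatter around 0, with bmp16 above the upper line and rspo2, inhbab and fgf18b below the lower.

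Other genes of the pathways, taken from the lists described with the processing, were read in the same way. Of all genes, 1.11% were at least 2-fold higher and 2.25% lower in granule-gated cells of the knockout library. Of 26 Wnt pathway genes compared there, 1 was at least 2-fold higher and 1 lower: prickle2b, a planar polarity gene, stood at 4.52 and 11.3 CPM, a log2 ratio of 1.32 (0.78 to 1.88), and lef1, a nuclear partner of beta-catenin, stood at 42.0 and 15.7 CPM, a log2 ratio of -1.42 (-1.72 to -1.13). Of 25 Fgf genes none was higher and 1 was lower, the adhesion protein gene flrt3 with a log2 ratio of -1.06, and of 30 Bmp genes none was higher and 2 were lower, bambib, a pseudoreceptor gene, at -1.48 and neo1b, a netrin and Rgm receptor gene, at -1.29. Of 11 hedgehog genes none was in either direction. The hedgehog target gene gli1, under the minimum of 100 UMIs and so not compared, stood at 7.98 and 2.08 CPM, a log2 ratio of -1.94 (-2.79 to -1.17). The target ptch1, which was compared, had a log2 ratio of 0.14, and the member hhip, also compared, had one of -0.82. Other listed genes under the minimum, with intervals that also left out 0, went in both directions. The higher were dvl2 at 4.51, from 0.21 CPM in the control library, tcf7 at 1.88, fgfbp3 at 1.54 and spry2 at 1.07. The lower were prickle1a at -1.78, smad1 at -1.69, id1 at -1.27, grem2a at -1.02, frs3 at -0.97, grem2b at -0.96 and smad6a at -0.81. No share of all genes at that depth stands beside these genes, so they are not read as a result about the pathways.

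In the habenula gate, 9 of 35 Wnt pathway genes were at least 4-fold over granule-gated cells in both libraries, beside 3.73% of all genes. They include lef1 at 1019.8 and 1192 CPM against 42.0 and 15.7 CPM in granule-gated cells (values control first). The beta-catenin gene ctnnb1 was also among them, at 944 and 966 CPM against 137 and 116 CPM. The other beta-catenin gene, ctnnb2, was enriched in no gate and stood at 227 and 286 CPM in granule-gated cells. Also enriched were the Wnt carrier gene wls at 98.2 and 130.3 CPM against 1.47 and 1.96 CPM, and axin2, a feedback inhibitor and target of the pathway. The level of axin2 was 37.8 and 38.7 CPM against 7.46 and 6.24 CPM. Not all of the enriched genes were particular to the habenula gate: lef1 and axin2 were also enriched in the galn gate, and wls in the glial gate. Genes of the Fgf pathway were enriched in the glial gate for 4 of 32, beside 4.54% of all genes: spry2 at 30.1 and 141 CPM against 1.58 and 3.30 CPM, dusp6 at 80.4 and 99.6 CPM against 16.5 and 17.5 CPM, gab1 at 93.0 and 149 CPM against 2.21 and 1.101 CPM and fgfbp3 at 95.5 and 957 CPM against 1.05 and 3.06 CPM. Among these, spry2 and dusp6 are feedback inhibitors that Fgf signals induce. Of the same list, spry4 was enriched in the GABAergic and habenula gates and not in the glial gate. The listed etv4, etv5a and etv5b were enriched in no gate, and etv5a stood at 900 and 749 CPM in granule-gated cells. The Bmp target genes id1 and id3 stood at 50.2 and 1079 CPM against 5.88 and 2.45 CPM and at 95.5 and 174 CPM against 3.26 and 4.89 CPM in the glial gate, and the hedgehog target gli1 at 35.2 and 49.8 CPM against 7.98 and 2.08 CPM. In that gate 3 of 36 Bmp and 2 of 18 hedgehog genes were enriched, beside 4.54% of all genes. Other id genes were enriched elsewhere or nowhere: id4 in the habenula gate (1110 and 1528 CPM), id2a in the uts1 gate (737 and 592 CPM) and id2b in none. Wnt genes enriched in the galn, GABAergic and glial gates numbered 5, 3 and 5 of 35, beside 1.05%, 4% and 4.54% of all genes.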

How the data were processed

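The deposited values are raw counts of UMIs per gene and barcode in 2 matrices, which the authors made with Cell Ranger 7.1.0; Seurat and the build GRCz11 are also named in the submitters' processing notes. No coordinates or sequences are printed. A matching gene under the minimum is not reported here. No annotation, cell filter or strand setting is given in the sources used here. Barcodes with at least 1000 UMIs, 500 genes and at most 15% mitochondrial UMIs were taken as cells, 8 of them shared by both libraries. Scrublet (scanpy 1.11.5) marked 0 control and 2 knockout cells as doublets by its automatic threshold, so the cells with the highest scores, 0.8% per 1000 cells, were taken out (134 and 84). Further doublets may remain. Median UMIs per cell were 2585 and 2844, control first.

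A cell was gated with at least 3 UMIs from at least 2 genes of a marker list and at least 5 times that list's share of all UMIs (0.25 times for the granule list); cells that passed more than 1 non-granule gate, 3 and 8, were left out. Subgates of granule-gated cells needed 2 UMIs and 3 times the pooled share. UMIs were summed per gate and library and divided by the gate's total, as CPM, with exact Poisson intervals; ratios carry exact conditional binomial intervals and shares Clopper-Pearson intervals. All cover counting error only. Free RNA made up at most 11.3% and 8.70% of the UMIs of a cell by the estimate used, and barcodes under 100 UMIs gave its composition. A gate called a member at 4-fold with 10 UMIs, and the genotype comparison used genes with 100 UMIs. No test between genotypes was run, since each has 1 library. On simulated data the genotype comparison recovered 100% of 200 changed genes among 11457, and 94.4% of intervals held the true ratio. How the comparison performs under variation between animals or preparations was not tested.

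The members and all lists, including the other pathway genes (50 Wnt, 38 Fgf, 54 Bmp and 28 hedgehog symbols, 11 of them absent from the features used), were chosen with earlier results of these data known. Genes named with full values are the 3 members with most UMIs per role, the 3 most enriched per gate, the members past 2-fold between genotypes, paralog pairs and the 2 leading members per subgate with at least 10 UMIs there in each library; other members named were chosen after their values were seen. Tools were Python 3.11.15, numpy 2.4.6, scipy 1.17.1, pandas 2.3.3, igraph 0.11.9 and matplotlib 3.10.9.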

Additional observations from a re-analysis of the deposited data

Results flagged for a closer look

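In granule-gated cells the Fgf ligand gene fgf18a went in opposite directions between the genotypes in different subgates. It stood at 62.0 CPM (69 UMIs) in control cells and 15.0 CPM (7 UMIs) in knockout cells of the gsg1l subgate, a log2 ratio of -2.05 (-3.42 to -0.93). In cells of no subgate it stood at 4.22 CPM (22 UMIs) and 13.6 CPM (63 UMIs), a log2 ratio of 1.69 (0.97 to 2.46). Both populations fall under the minimum of 100 UMIs set for the genotype comparison, so fgf18a was not among the members compared in them. The difference between the subgates was not tested, since each genotype has 1 library.

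The Bmp ligand gene bmp2b was left out of the members because the control library held 26 UMIs, under the minimum of 30, while the knockout library held 84. The receptor gene bmpr2b was higher in cells that passed no gate than in any gate, by at least 1.11 times in both libraries.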

How the results depend on the processing

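No paired analysis was possible because each genotype has a single library and no result comes from a test. No named value reversed: of 603 values of named genes, 547 stayed within their counting interval and 56 moved, most of them under thinning to 1000 UMIs (21), subtraction of free RNA (18) and classes from clusters (11). Thinning to 1000 UMIs gave 0 members higher and 1 lower in the knockout library, 27 members kept in place of 48, 1 member enriched in the habenula gate and 0 in the GABAergic, galn, uts1 and glial gates. Few members keep the minimum number of UMIs at that depth. With classes from clusters, 7 members were enriched in the GABAergic and 5 in the uts1 class, and the median log2 ratio between the genotypes was 0.0573; the cause was not tested. The following were chosen after seeing the data. With 1 set of subgate weights for both libraries, 2 members were higher and 1 lower. With a glial gate from the microglia and radial glia lists alone, 3 members were enriched, and without the cell holding most UMIs of each member, 2 were. The counts of enriched members under other settings have no share of all genes beside them and are not read as results about the members. Restricting the habenula gate to kiss1-positive cells moved 1 named value. A minimum of 50 UMIs was not run for the gate counts, where it has no counterpart. Depth limits the small gates most: a member absent from the 21 knockout GABAergic-gated cells may still stand near 12 CPM or somewhat above.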
